A study of Mus musculus with 6 samples.

Results

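Transcripts for the nuclear-encoded subunits of respiratory complex I were followed through an immunoprecipitation (IP) of the RNA-binding protein LIN28B. Members were all rows of the deposited expression values named Ndufa, Ndufab, Ndufb, Ndufc, Ndufs or Ndufv plus a number, which gave 37 of 54752 rows. A further 14 rows that begin with Nduf, among them the assembly factors, did not match. The values were measured in B cell progenitors grown from the bone marrow of 2 tet-LIN28B mice and 1 littermate control, with an anti-FLAG IP and an input for each mouse, 6 libraries in all. The question asked of each transcript was whether it was recovered with LIN28B more or less than its level in the input.

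The tet-LIN28B mice carry 1 allele of a Dox-inducible, Flag-tagged human Lin28b cDNA at the Col1a locus (Col1a tetO-LIN28B), driven, per the study's methods, by the promoter of that locus, together with Rosa26 rtTA*m2. The littermate control was heterozygous for Rosa26 rtTA*m2 without the transgene, so its IP shows what the antibody and the beads recover when no tagged protein is present. Handling was the same for both genotypes. The mice were adult and had not been induced in vivo. The cells of the bone marrow that did not adhere to plastic grew for 5 days in IL-7 (20 ng/mL) plus Dox. The study used males and females interchangeably and does not give the sex of these mice. The labels give Dox at 0.1 mg/mL, whereas the study's methods give the same figure in µg/mL. Input was a small part of the lysate, set aside before the IP. The progenitors are a culture of whole marrow and not a sorted population, and 1 control mouse stands for its genotype.

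Complex I (NADH:ubiquinone oxidoreductase) is the entry point of electrons from NADH into the respiratory chain. A peripheral arm in the mitochondrial matrix oxidises NADH and passes the electrons along iron-sulfur clusters to ubiquinone, and a membrane arm pumps protons. The catalytic core is encoded partly in the nucleus and partly in mitochondrial DNA, and around it sit accessory subunits that are all made from nuclear genes, translated in the cytosol and imported. LIN28 proteins are known to bind the GGAG sequence in let-7 precursors through their zinc knuckles, and the related GGAGA motif has been described in mRNAs that they bind.

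Values are FPKM, fragments scaled to transcript length and to the size of the library. The IP/input enrichment ratio is the FPKM in the IP over that in the input of the same mouse. Tests were run with limma on log2((IP + 1)/(input + 1)) of the 5783 genes with at least 10 FPKM in each of the 3 inputs, and all 37 members were among them. A transcript was called higher or lower at a Benjamini-Hochberg adjusted p under 0.05 over all 5783 genes. Only 1 residual degree of freedom remained for a gene, so the spread was largely borrowed from other genes, and the single control was taken to vary as much as the tet-LIN28B mice do. The p-values measure only the spread between these mice. Steps between low values put the depth between 14.3 (control IP) and 21.4 (control input), in units of 1e+06 fragments. At that depth the member with the fewest fragments in any library, Ndufa11 in 1 tet-LIN28B IP, rested on about 256 of them.

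The labels and the cells were checked first. The mouse Lin28b row held 0.24 and 0.44 FPKM in the tet-LIN28B IPs against 0.62 and 1.03 FPKM in their inputs, and 0 FPKM in the control IP against 0.01 FPKM in the control input. The transgene is human, so this row does not measure its level. The 9 B cell progenitor markers summed to 6918 to 8155 FPKM in the inputs, and 8 of them passed the filter, while Rag1 stood at 9.86 to 11.7 FPKM. The 6 myeloid markers summed to 7424 and 4643 FPKM in tet-LIN28B inputs, against 6392 FPKM in the control input, most of it from S100a8 and S100a9, with Mpo and Csf1r under 4 FPKM. Markers of erythroid cells summed to 16.6 to 41.1 FPKM, of T and NK cells to 47.0 to 135 FPKM, and of stroma and endothelium to 10 to 12.1 FPKM, nearly all of the last from Pecam1, with Col3a1 at 0. The part of the myeloid RNA in the members' inputs was not tested.

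Complex I transcripts did not move as a block in the LIN28B IP. They spread from a 4-fold gain to a loss of more than 10-fold, and the same transcripts stood at each end in both tet-LIN28B mice. At the top were Ndufa5, an accessory subunit of the peripheral arm, where the mean ratio was 4.33 ± 0.145 (SD, n = 2 mice), and Ndufb3, an accessory subunit of the membrane arm, at 4.18 ± 0.658. At the bottom were Ndufb4 at 0.139 ± 0.0138 and Ndufa11 at 0.0906 ± 0.0052, both accessory subunits of the membrane arm. In the control all 4 lay between 0.588 and 0.806.

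Of the 37 members, 12 were called higher in the tet-LIN28B IP against its input and 17 lower, while 8 passed in neither direction (limma, adjusted p under 0.05). Among all genes tested the same calls took in 22% and 43.7%. The average ratio was above 2 for 5 members, in both mice each time, and below 0.5 for 11, of which 10 were below it in both mice. Over all genes, 10% were above 2 and 30.5% below 0.5. The median of the average ratio was 0.777 over the members and 0.796 over all genes. The median and the shares past 2 and 0.5 thus lay near those of the other transcripts of these cells.

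In the control IP the members stayed together. Their ratios ran from 0.535 for Ndufv3 to 1.10 for Ndufa13, with 36 of 37 below 1, none above 2 and none below 0.5, against 3.44% and 2.87% of all genes past those limits. The median was 0.770 for the members and 0.978 for all genes. The SD of log2 ratios over the members was 1.33 in tet-LIN28B mice, against 0.22 in the control. Over all genes it was 1.27 and 0.55. Between both tet-LIN28B mice the members' log2 ratios followed each other at Pearson r = 0.974 (Spearman rho = 0.970, n = 37 transcripts). Their tet-LIN28B mean followed the control at r = 0.367 and rho = 0.345. Transcripts of 1 library share its depth and are not independent, so these are descriptions.

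**Figure D1:**
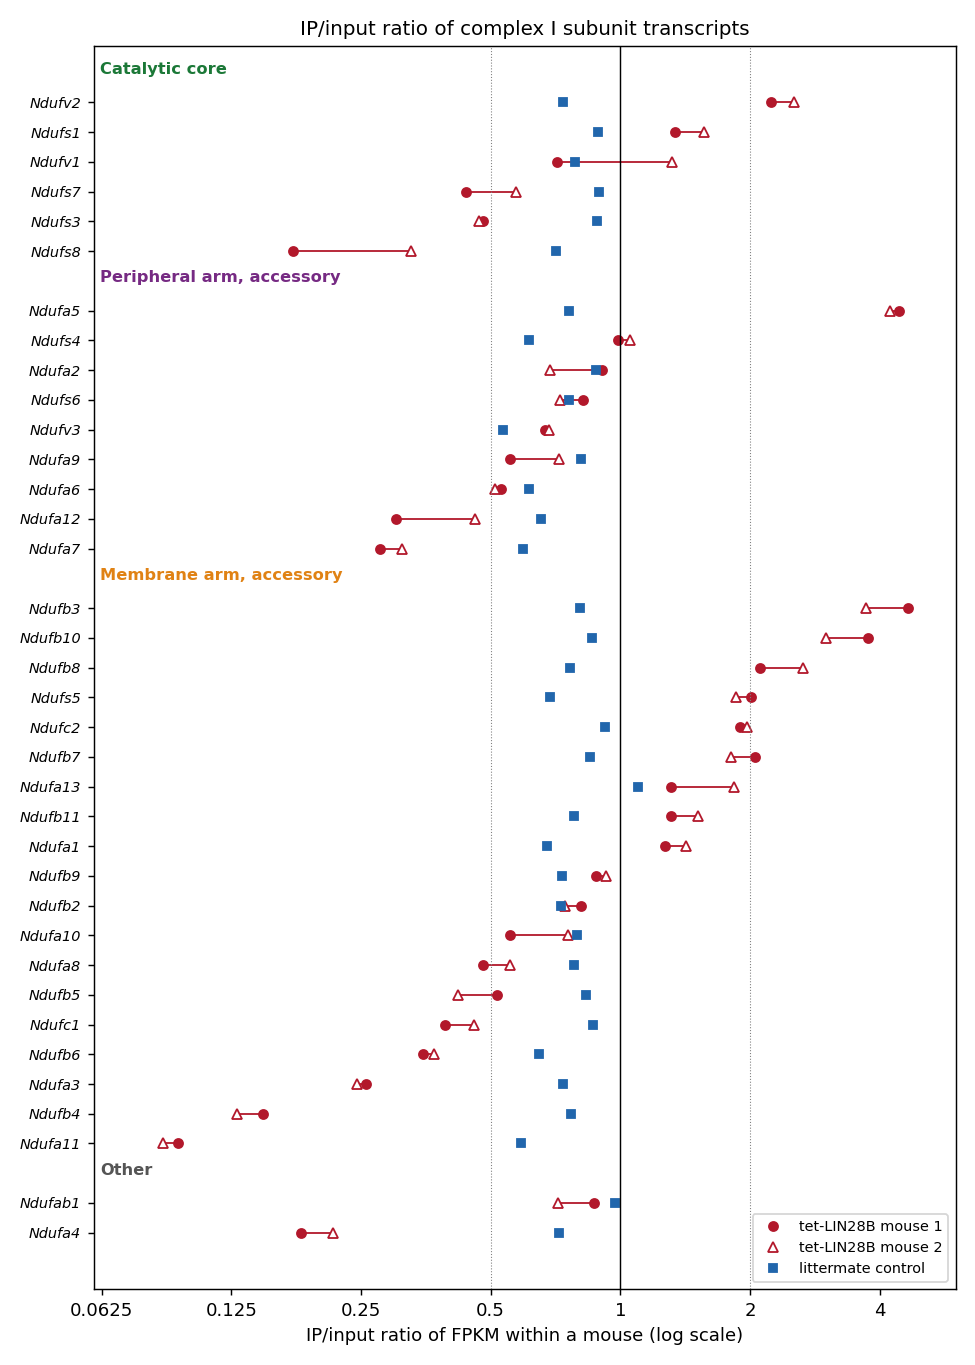
IP/input ratio of FPKM (x axis, log scale) of 36 of the 37 transcripts (y axis), grouped by the place of the protein in the complex. Red circles and open triangles are tet-LIN28B mice 1 and 2, joined by a line, and blue squares are the littermate control; dotted lines mark 0.5 and 2. The control squares lie between 0.535 and 1.10, while the tet-LIN28B points run from 0.0869 to 4.65.

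Set against the control, 10 members had a higher IP/input ratio in tet-LIN28B mice and 7 a lower one, and 20 passed in neither direction. Of all genes tested, 7.18% were higher and 24.8% lower. Higher calls became more frequent with the level of the transcript. They took in 12.3% of the 341 genes with a mean input of 300 to 1000 FPKM, where 5 of 20 members were higher. From 1000 to 3000 FPKM they took in 20.8% of the 173 genes, where 4 of 9 members were higher. Lower calls took in 29.9% and 33.5% of the genes at these levels, where 2 of 20 and 3 of 9 members were lower. From 10 to 50 FPKM, 5.0% of genes were higher and 21.1% lower. Both tet-LIN28B mice stood above the control for 17 members and below it for 17, and for Ndufv1, Ndufa2 and Ndufs6 the control lay between them. Over all genes both mice were above it for 28.9% and below it for 59.5%. The median difference on the log2 scale was 0.02 over the members and -0.37 over all genes. The standard error of a member's difference was 0.32 to 0.39. Among those called higher were Ndufa5, Ndufb3, Ndufb10, Ndufv2, Ndufb8, Ndufs5, Ndufb7, Ndufc2 and Ndufa1, and called lower were Ndufa11, Ndufb4, Ndufa4, Ndufa3, Ndufs8, Ndufc1 and Ndufa7. Scaling each library to the same sum put 8 members higher and 12 lower, beside 5.27% and 29.9% of all genes. Higher members made up 58.8% of the members' calls as deposited and 40.0% after that scaling. Over all genes, higher calls were 22.4% and 15% of the calls. Centring each mouse on the median of all genes gave 13 higher and 5 lower, beside 12.2% and 18.6% of all genes. Higher calls were then 72.2% of the members' calls, beside 39.7% over all genes. Without the filter on low values 0 members and 0% of all genes passed. With the libraries fitted without the mouse as a block 4 members were higher and 3 lower, beside 2.37% and 10.2% of all genes. With the study's own filter, which asks for 50 FPKM in the input and IP libraries of tet-LIN28B mice, 11 of 31 members were higher and 10 lower, beside 23.2% and 22.2% of all genes so filtered. Higher calls were then 52.4% of the members' calls and 51.1% of all calls.

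**Figure D2:**
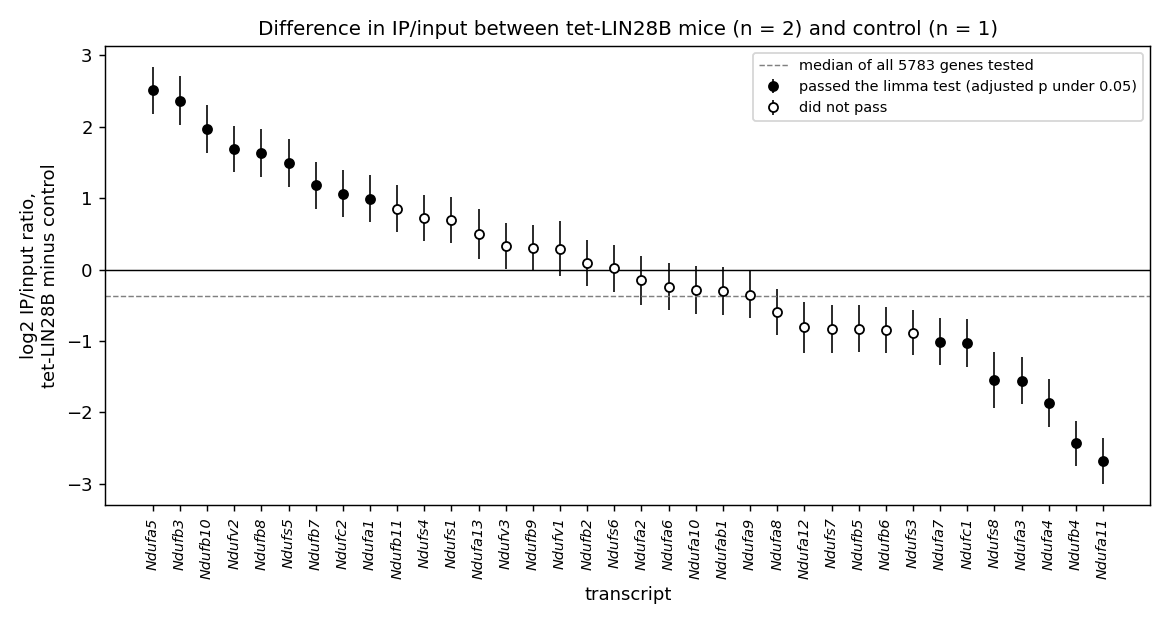
Difference in log2 IP/input ratio between tet-LIN28B mice (n = 2) and the control (n = 1) for 36 of the 37 transcripts, in order of size, with the standard error from limma as bars. Filled points passed at an adjusted p under 0.05 (9 higher and 7 lower of those drawn) and open points did not; the dashed line is the median of all 5783 genes, -0.37.

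The GGAGA motif was searched on the sense strand of 1 representative GENCODE M21 model per gene. It occurred in the coding sequence of 25 of 37 members, or 67.6%, and of 86.2% of the protein-coding genes tested. Among coding sequences of 200 to 600 nt, 15 of 27 members held it, 55.6%, and 65.2% of 1211 genes did. Of the members higher than the control 7 of 10 held it, of those lower 4 of 7, and of the others 14 of 20. The windows of 29 nt below show it, in capitals, in transcripts from both ends of the range. The sentences after them give the position of the motif, counted from the first base of the mRNA.
Ndufb3 coding: gcaatgaggcttGGAGAtacatgggcggc
Ndufb10 coding, base 419: ctgagatgcagtGGAGAagggacttcaaa
Ndufb10 coding, base 444: caaagttgaccaGGAGAtcatgaacatca
Ndufb10 coding, base 465: gaacatcatccaGGAGAgactgaaggctt
Ndufb10 coding, base 496: cagcagagggagGGAGAgaactaccagca
Ndufv2 coding: ggaataaaggttGGAGAgactacacctga
Ndufb4 coding: tgacgtgtctccGGAGAccagaagggcgc
Ndufs8 coding: ctactcaacaatGGAGAcaagtgggaggc
The matches shown start at base 459 in Ndufb3 and at bases 419, 444, 465 and 496 in Ndufb10. They start at 572 in Ndufv2, at 175 in Ndufb4 and at 866 in Ndufs8. Ndufs8 has 3 coding matches and Ndufv2 has 2, of which 1 each is shown.

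The catalytic core holds 7 nuclear-encoded subunits, which carry the flavin, the iron-sulfur clusters and the ubiquinone site. Against the input, 3 were higher in the tet-LIN28B IP, 3 were lower and 1 passed in neither direction. Against the control, 2 were higher and 1 lower. Of all genes tested, 22% were higher and 43.7% lower against the input, and 7.18% and 24.8% against the control. The core thus held transcripts on both sides, as the whole complex did.

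Ndufv2 encodes the subunit with a single iron-sulfur cluster next to the flavin site. The gene occupies chromosome 17 of GRCm38 (66078638 to 66101559, minus strand) in 8 exons. It had 815 and 964 FPKM in the tet-LIN28B IPs against 364 and 381 FPKM in their inputs. In the control it had 257 FPKM in the IP and 349 FPKM in the input. Both tet-LIN28B IPs thus stood above every other library. The ratios were 2.24 and 2.53 in tet-LIN28B mice, against 0.737 in the control, which made a log2 difference of 1.69 (SE 0.33, adjusted p = 0.00345 from limma).

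Ndufs1, the largest subunit of the complex and a carrier of iron-sulfur clusters, had ratios of 1.34 and 1.56 in tet-LIN28B mice, against 0.886 in the control. It was higher against the input (adjusted p = 0.0274 from limma) but not against the control (adjusted p = 0.12). Ndufv1, which binds NADH and the flavin, had ratios of 0.711 and 1.32 in tet-LIN28B mice, on either side of the 0.787 of the control. It was among the scarcest members, at 33.8 to 43.0 FPKM in the inputs. On the log2 scale, Ndufv1 and Ndufs8 had the widest gaps between both tet-LIN28B mice.

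The other core transcripts lay below 1 in tet-LIN28B mice. Ndufs8, a subunit with iron-sulfur clusters on the path to ubiquinone, lies on chromosome 19 from 3908863 to 3912774 on the minus strand. It had 26.8 and 62.8 FPKM in the tet-LIN28B IPs against 154 and 192 FPKM in their inputs, and 140 FPKM in the control IP against 198 FPKM in the control input. Its ratios were 0.174 and 0.327 in tet-LIN28B mice, against 0.709 in the control, which made a log2 difference of -1.55 (SE 0.39, adjusted p = 0.0140 from limma). Ndufs3 had 62.0 and 64.7 FPKM in the tet-LIN28B IPs against 129 and 138 FPKM in their inputs, and 121 FPKM in the control IP against 136 FPKM in the control input. It was lower than the input (ratios 0.481 and 0.471, adjusted p = 4.43e-04 from limma), and its difference from the control of -0.89 had an adjusted p of 0.0539. Of the 50-base words of Ndufs3, 35.8% also occur in other genes, which together held a mean of 0.41 FPKM in the inputs. Ndufs7, which binds the last cluster before ubiquinone, had ratios of 0.438 and 0.573 in tet-LIN28B mice, against 0.891 in the control.

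Among the 9 accessory subunits of the peripheral arm, 1 was higher and 5 were lower in the tet-LIN28B IP than in the input. Against the control 1 was higher and 1 lower. The shares of all genes were 22% and 43.7% against the input, and 7.18% and 24.8% against the control. The median of their average ratios was 0.675 in tet-LIN28B mice, against 0.654 in the control. Ndufa5 stood alone at the top of this group, since the next transcript, Ndufs4, had an average ratio of 1.02.

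Ndufa5 lies on chromosome 6 of GRCm38 from 24518666 to 24528013 on the minus strand. Its model has 5 exons and an mRNA of 875 nt, of which 467 nt are 5′ UTR, 348 nt coding and 60 nt 3′ UTR. It had 3803 and 4445 FPKM in the tet-LIN28B IPs against 857 and 1051 FPKM in their inputs. In the control it had 793 FPKM in the IP and 1042 FPKM in the input. Both tet-LIN28B IPs stood far above the other libraries, and Ndufa5 was the most abundant member in both of these IPs. The ratios were 4.44 and 4.23 in tet-LIN28B mice, against 0.761 in the control, with a log2 difference of 2.51 (SE 0.33, adjusted p = 5.33e-04 from limma). No 50-base word of its model was shared with another gene.

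Ndufs4, which encodes an accessory subunit whose human gene is mutated in Leigh syndrome, had 353 and 508 FPKM in the tet-LIN28B IPs against 358 and 483 FPKM in their inputs. In the control it had 304 FPKM in the IP and 494 FPKM in the input. The tet-LIN28B ratios of 0.987 and 1.05 were above the control ratio of 0.615, but the difference did not pass (adjusted p = 0.109 from limma).

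At the lower end of the group was Ndufa7, with 195 and 263 FPKM in the tet-LIN28B IPs against 703 and 843 FPKM in their inputs, and 518 FPKM in the control IP against 873 FPKM in the control input. Its log2 difference from the control was -1.01 (SE 0.33, adjusted p = 0.0372 from limma). Ndufa12 had 187 and 338 FPKM in the tet-LIN28B IPs against 619 and 737 FPKM in their inputs, and 490 FPKM in the control IP against 750 FPKM in the control input. It was lower than the input (adjusted p = 1.49e-04 from limma) but not lower than the control (adjusted p = 0.109). The remaining 5 transcripts of the group had average ratios of 0.520 for Ndufa6, which belongs to the LYR-motif proteins that bind the acyl carrier protein, to 0.798 for Ndufa2. None of these 5 passed against the control.

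Of the 37 members, 19 are accessory subunits of the membrane arm. In the tet-LIN28B IP 8 were higher and 8 lower than the input, beside 22% and 43.7% of all genes, and 3 passed in neither direction. Against the control 7 were higher and 4 lower, beside 7.18% and 24.8% of all genes. Their average ratios ran from 0.0906 to 4.18, with a median of 0.901 in tet-LIN28B mice, against 0.780 in the control.

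Ndufb3 lies on chromosome 1 of GRCm38 from 58586384 to 58595964 on the plus strand, in 3 exons. It had 2721 and 2786 FPKM in the tet-LIN28B IPs against 585 and 750 FPKM in their inputs. In the control it had 550 FPKM in the IP and 683 FPKM in the input. The ratios of 4.65 and 3.72 in tet-LIN28B mice were far above the 0.806 of the control, with a log2 difference of 2.37 (SE 0.34, adjusted p = 8.6e-04 from limma).

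Ndufb10, on chromosome 17 from 24722060 to 24724478 on the minus strand, had 1553 and 1392 FPKM in the tet-LIN28B IPs against 413 and 463 FPKM in their inputs. In the control it had 405 FPKM in the IP and 472 FPKM in the input. Its ratios were 3.76 and 3.01 in tet-LIN28B mice, against 0.858 in the control (log2 difference 1.97, SE 0.34, adjusted p = 0.00195 from limma). Ndufb8 followed at 2.11 and 2.66 in tet-LIN28B mice, against 0.763 in the control (log2 difference 1.63, adjusted p = 0.00519). The other 4 called higher were Ndufs5 and Ndufb7, both with the twin cysteine motifs of proteins folded in the intermembrane space, Ndufc2, and Ndufa1, a short subunit needed for assembly. Their log2 differences were 1.49, 1.18, 1.06 and 0.99 (adjusted p = 0.00724, 0.0217, 0.0306 and 0.0429). Ndufa1 was not called higher than its input (adjusted p = 0.0729 from limma). Its call against the control was lost when each library was scaled to the same sum. Ndufs5 shared 31.1% of its 50-base words with 1 other gene, at a mean of 19.7 FPKM in the inputs.

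Ndufa11 encodes a subunit near the contact of complex I with complex III in respiratory supercomplexes. The gene occupies chromosome 17 of GRCm38 (56717767 to 56722141, plus strand). It had 51.5 and 65.5 FPKM in the tet-LIN28B IPs against 547 and 754 FPKM in their inputs. In the control it had 475 FPKM in the IP and 809 FPKM in the input. Both tet-LIN28B IPs thus stood far below every other library. The ratios were 0.0942 and 0.0869 in tet-LIN28B mice, against 0.588 in the control, with a log2 difference of -2.68 (SE 0.32, adjusted p = 4.15e-04 from limma). Ndufa11 overlaps Vmac on the opposite strand over 12.8% of its exon bases, and Vmac held 0.74 to 6.04 FPKM in the 6 libraries.

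Ndufb4, also found at supercomplex contacts, lies on chromosome 16 from 37647170 to 37654453 on the minus strand. It had 25.6 and 27.6 FPKM in the tet-LIN28B IPs against 173 and 214 FPKM in their inputs, and 151 FPKM in the control IP against 196 FPKM in the control input. The ratios were 0.148 and 0.129 in tet-LIN28B mice, against 0.770 in the control (log2 difference -2.43, SE 0.32, adjusted p = 5.33e-04 from limma). Ndufb4 shares 37.0% of its 50-base words with Ndufb4c, annotated as a processed pseudogene, which held more FPKM than Ndufb4 itself, so how the fragments were split between both rows is uncertain. Ndufb4c had 55.3 and 80.4 FPKM in the tet-LIN28B IPs against 621 and 842 FPKM in their inputs, and 477 FPKM in the control IP against 787 FPKM in the control input. With Ndufb4 and the genes sharing its words added up, the log2 difference was -2.57. The ratio was thus low for either row and for their sum.

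Ndufa3 had ratios of 0.256 and 0.245 in tet-LIN28B mice, against 0.736 in the control, which made a log2 difference of -1.55 (SE 0.33, adjusted p = 0.00543 from limma), from a high level of 1858 to 2085 FPKM in the inputs. Ndufc1 had ratios of 0.391 and 0.457 in tet-LIN28B mice, against 0.863 in the control (log2 difference -1.03, adjusted p = 0.0376). It shared 5.0% of its 50-base words with 51 other genes, 11 words of them with the abundant Rps16. With those genes added to Ndufc1 the log2 difference turned to 1.27. Rps16 had 12682 and 15427 FPKM in the tet-LIN28B IPs against 4715 and 4733 FPKM in their inputs. It held more FPKM than Ndufc1 in every library, so the sum cannot show how Ndufc1 itself behaved. The call is for the row as deposited. Ndufb6 and Ndufb5 lay below 0.6 in both tet-LIN28B mice without passing against the control (adjusted p = 0.0666 and 0.0793). They overlap Smim27 and Mrpl47 on the opposite strand over 39.0% and 20.0% of their exon bases, and without strand in the library kit the reads of such partners cannot be told apart.

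The remaining pair of members have other tasks as well. Ndufa4 was long counted with complex I and has since been assigned to cytochrome c oxidase, complex IV. It had 266 and 441 FPKM in the tet-LIN28B IPs against 1467 and 2045 FPKM in their inputs, and 1472 FPKM in the control IP against 2041 FPKM in the control input. Its ratios were 0.181 and 0.216 in tet-LIN28B mice, against 0.721 in the control (log2 difference -1.86, SE 0.33, adjusted p = 0.00244 from limma). Ndufab1, the mitochondrial acyl carrier protein, sits in both arms and also serves fatty acid synthesis. It had 442 and 457 FPKM in the tet-LIN28B IPs against 507 and 638 FPKM in their inputs, and 606 FPKM in the control IP against 623 FPKM in the control input, and passed in neither direction.

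**Figure D3:**
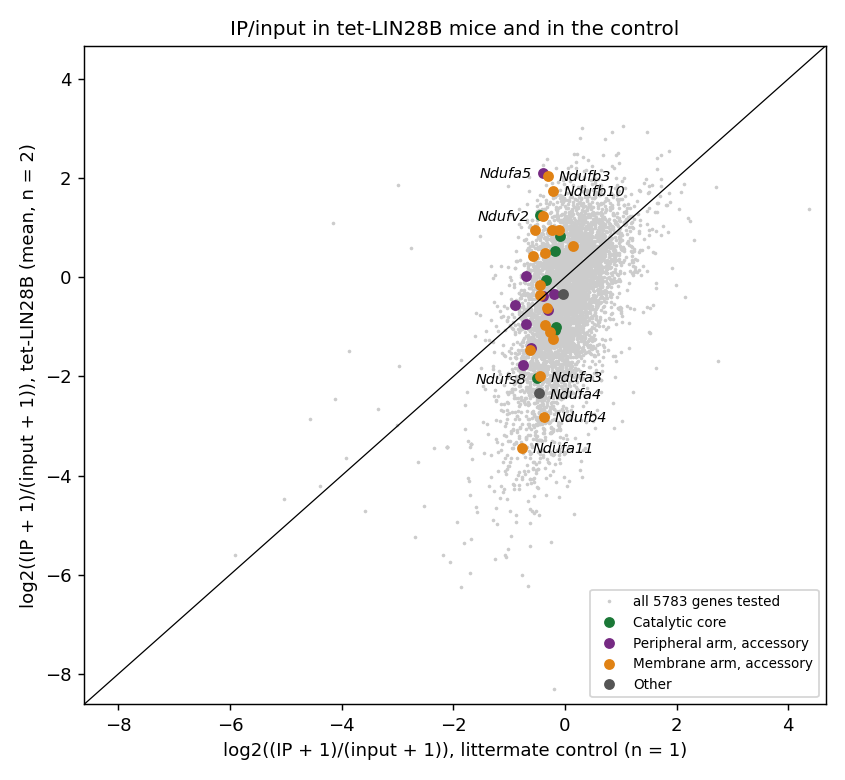
log2((IP + 1)/(input + 1)) as the mean of both tet-LIN28B mice (y axis) against the control (x axis), for all 5783 genes tested in grey and for the 37 members coloured by group. The line marks equal ratios; the members form a narrow column on the control axis (SD 0.22) and a long one on the tet-LIN28B axis (SD 1.33).

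The inputs gave no call between the genotypes for any member. None of the 37 passed (limma on log2(FPKM + 1), lowest adjusted p = 0.779), and 0 had an unadjusted p under 0.05, where 1 of 5783 genes passed and 397 had such a p. Their log2 differences, tet-LIN28B minus control, ran from -0.33 for Ndufa11 to 0.15 for Ndufs1, with a median of -0.13 over the members and -0.07 over all genes. The first tet-LIN28B mouse had the lowest input of the 3 mice for 32 members, and without it the median was -0.03. In bulk libraries, fewer cells of a type and less RNA per cell cannot be told apart.

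Input levels spanned a wide range and did not order the transcripts by recovery. Mean input in tet-LIN28B mice was 34.9 FPKM for Ndufv1 and 1943 FPKM for Ndufa3. Core transcripts had a median of 173 FPKM, accessory ones of the peripheral arm 773 FPKM and of the membrane arm 651 FPKM. Across the 37 transcripts the tet-LIN28B log2 ratio and the log2 mean input correlated at r = 0.02 (rho = 0.04), and Ndufa3 and Ndufs5, with more than 1600 FPKM each, had average ratios of 0.250 and 1.93.

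As a pool, complex I transcripts took 2.19% and 2.60% of all FPKM in the tet-LIN28B IPs against 1.74% and 2.00% in their inputs, and 1.81% in the control IP against 1.99% in the control input. Within the pool the make-up changed far more than its size. The 5 members with average ratios above 2 made up 39.1% and 38.5% of it in the tet-LIN28B IPs against 13.6% and 13.5% in their inputs, and 13.7% in the control IP against 13.3% in the control input. The 8 members with the lowest ratios made up 4.89% and 5.84% in the tet-LIN28B IPs against 25.5% and 26.7% in their inputs, and 24.5% in the control IP against 26.9% in the control input. Both sets were picked by these ratios, so the shares are a description. The most and the least abundant members, Ndufa5 and Ndufb4, stood 148-fold and 161-fold apart in the tet-LIN28B IPs, whereas the extremes stood 51.6-fold and 60.6-fold apart in their inputs, 45.3-fold in the control IP and 49.3-fold in the control input.

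**Figure D4:**
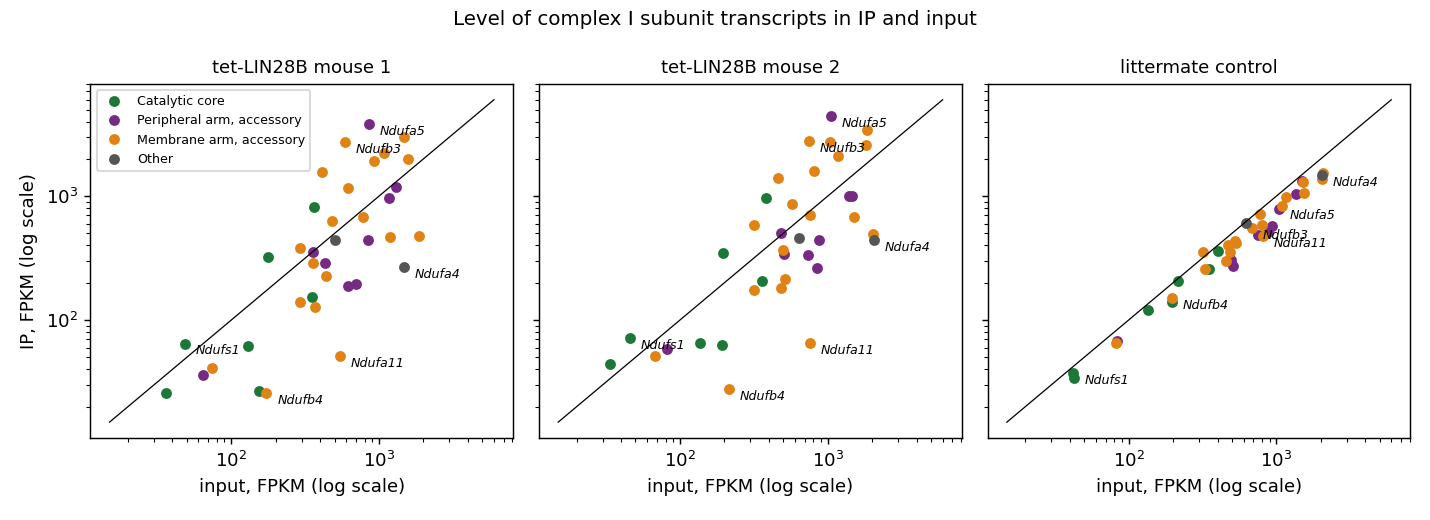
FPKM in the IP (y axis) against FPKM in the input (x axis), both on log scales, of the 37 transcripts in each of the 3 mice, coloured by group. The line marks equal levels; in both tet-LIN28B mice the points spread on either side of it, and in the control they run along it just below, with a median ratio of 0.770.

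Genes of the same pathway outside the rule gave the following. Ndufb1-ps, the mouse row that corresponds to the membrane arm subunit Ndufb1, had 4064 and 4577 FPKM in the tet-LIN28B IPs against 1007 and 1104 FPKM in their inputs, and 737 FPKM in the control IP against 1147 FPKM in the control input. Its ratios of 4.04 and 4.15 in tet-LIN28B mice, against 0.643 in the control (log2 difference 2.67, SE 0.33, adjusted p = 4.28e-04 from limma) placed it with Ndufa5 and Ndufb3. Of 16 assembly factors, which help build the complex without staying in it, 11 were tested. In the tet-LIN28B IP 1 was higher and 7 lower than the input, beside 22% and 43.7% of all genes tested. Against the control none was higher and 2, Ndufaf1 and Ndufaf3, were lower, beside 7.18% and 24.8% of all genes. Ndufaf8 was the one that was higher than the input, with ratios of 2.40 and 1.99 in tet-LIN28B mice, against 1.47 in the control.

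The 7 core subunits made inside mitochondria from mitochondrial DNA were all lower in the tet-LIN28B IP than in the input, with a median ratio of 0.0805 in tet-LIN28B mice, against 0.389 in the control. Against the control 6 of the 7 were lower. Of all genes tested, 43.7% were lower against the input and 24.8% against the control. mt-Nd3 had the lowest ratios, 0.0223 and 0.0185 in tet-LIN28B mice, against 0.219 in the control. mt-Nd4l was the exception, with a log2 difference of 0.20 (adjusted p = 0.687 from limma). In the control, too, the ratios of all 7 were below the lowest of the 37 nuclear members.

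All 37 members had a representative model in the GENCODE M21 annotation of GRCm38. Their mRNAs were short, with a median of 908 nt over the members (419 to 4371 nt) and of 2300.5 nt over the 5260 protein-coding genes tested, and a median coding length of 435 and 1029 nt. A model was the longest of the principal isoforms, and long ones such as that of Ndufb2 may not be the form these cells make. Across the members the tet-LIN28B log2 ratio followed mRNA length at r = 0.12, GC content at r = -0.12 and 5′ UTR length at r = 0.32. Across the protein-coding genes the values were 0.37, -0.25 and 0.15. For the log2 ratio of the control, they were 0.27, 0.04 and 0.18 across the members. Across the protein-coding genes the control gave 0.45, 0.09 and 0.18. The mean fragment, as estimated from the values, was 205 and 180 nt in the tet-LIN28B IPs against 235 nt in both of their inputs, and 235 nt in the control IP against 245 nt in the control input. The part of fragment length in the ratios of such short mRNAs was not tested.

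Ndufb10 had the motif 4 times in 528 coding nt. Ndufa5 and Ndufa11, at opposite ends of the range, had no match anywhere in their models, and Ndufs8, with 3 coding matches, was among the lowest. Across the 37 members the count of coding matches and the tet-LIN28B log2 ratio correlated at r = 0.18 (rho = 0.15). Across the 5260 genes they correlated at r = 0.21 (rho = 0.26). With the log2 ratio of the control, the same count correlated at r = 0.14 (rho = 0.18) over the members. Over the 5260 genes it did so at r = 0.23 (rho = 0.27). Coding matches per kb of coding sequence correlated over these genes at r = 0.11 (rho = 0.12) with the tet-LIN28B log2 ratio. With that of the control they correlated at r = 0.03 (rho = 0.07). With the difference from the control, the count gave r = 0.14 (rho = 0.19) and the matches per kb r = 0.11 (rho = 0.11). The part of coding length in the count was not tested. A match is a run of letters in the model and not a measured binding site.

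**Figure D5:**
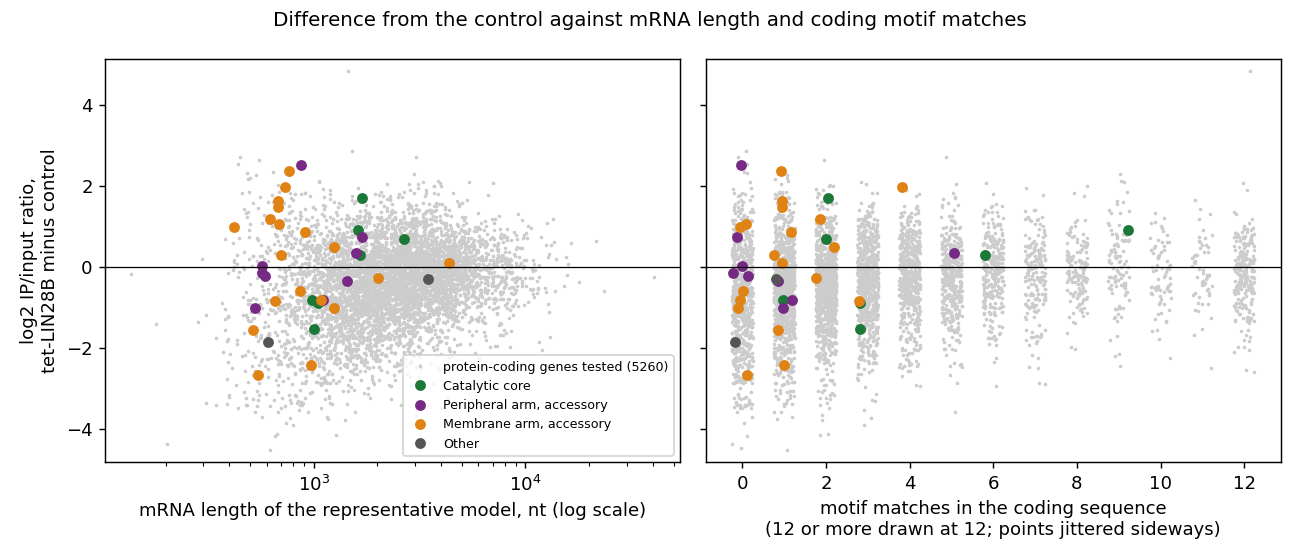
Difference in log2 IP/input ratio, tet-LIN28B minus control (y axis), against the mRNA length of the model in nt on a log scale (left) and against the number of motif matches in the coding sequence (right), with 5260 protein-coding genes in grey and the 37 members coloured by group. Members with 0 coding matches lie at both ends of the y axis, from -2.68 to 2.51.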

How the data were processed

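RNA from input and anti-FLAG IP lysates was sequenced after poly(A)-primed SMART-Seq v4 amplification and Nextera XT tagmentation, which keeps no strand. Per the submitters' processing notes, reads were aligned to mm10 with STAR 2.7.1 and quantified with RSEM 1.28. Their annotation release was not given in the sources used here. The values deposited by the authors are FPKM per gene for each of the 6 libraries, without counts, and the authors kept genes reaching 50 FPKM in all 4 tet-LIN28B libraries.

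Libraries were assigned by their titles and column names. The descriptions end with the name of the other fraction, and technical replicates are mentioned once in the study, but the titles, which say biological replicates, were followed. No 2 of the libraries held identical values. The ratio keeps IP and input of a mouse together, as both came from 1 lysate. Over genes, input and IP differences between the pair of tet-LIN28B mice had a correlation of 0.302. log2((IP + 1)/(input + 1)) was fitted in R 4.3.3 with limma 3.58.1, moderated with a trend on mean level, for genes with at least 10 FPKM in each input. The filter of the authors also asks for the IP and would have dropped 6 members, so it was an alternative. Ndufs8, Ndufb4, Ndufa9 and Ndufa10 failed it only for a low IP, and Ndufs1 only for a low input. Tests were of the tet-LIN28B mean against 0, of its difference from the control, and of the inputs with log2(FPKM + 1). Standard errors and p-values are those of limma.

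Depth was estimated from the steps between low FPKM values with Python 3.11.15: 85.2% to 89.3% of low values lay within 0.15 of a whole number of fragments, too few for a count test. Intervals for counting error are not given. Models, lengths and motifs came from GENCODE M21, which holds names for 54092 of 54752 rows. Fits were tested on simulated data. Members, gene lists and tests were chosen with earlier results of these data known. All-library values were given for Ndufa5, Ndufb3, the 2 highest and 2 lowest members of each group by average ratio, and the 3 members furthest above and 3 furthest below the control. Ndufb4c, Smim27, Mrpl47, Mrpl36, Vmac, Rps16 and the features were chosen after values were seen. The values of 1 member and 1 motif window are not reported here. Alternatives concerned the filter, scaling, pseudocount, moderation, the replicate block, the rows counted as 1 gene and the mice. The restriction to protein-coding genes was added after the data were seen.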

Additional observations from a re-analysis of the deposited data

Results flagged for a closer look

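The IP/input ratio changed with genotype for 17 members by limma's test of the difference itself, 10 of them higher and 7 lower in tet-LIN28B mice. Of all 5783 genes tested, 7.18% were higher and 24.8% lower. On the log2 scale the differences of 9 of the higher ones were 2.51 for Ndufa5, 2.37 for Ndufb3, 1.97 for Ndufb10, 1.69 for Ndufv2, 1.63 for Ndufb8, 1.49 for Ndufs5, 1.18 for Ndufb7, 1.06 for Ndufc2 and 0.99 for Ndufa1. Those of the lower ones were -2.68 for Ndufa11, -2.43 for Ndufb4, -1.86 for Ndufa4, -1.55 for Ndufa3, -1.55 for Ndufs8, -1.03 for Ndufc1 and -1.01 for Ndufa7. Both tet-LIN28B mice lay on the same side of the control in each of the 17. The 17 were picked by this same difference, so that is a description and adds no support. Over all genes both mice were above the control for 28.9% and below it for 59.5%. The control is 1 mouse, so what is particular to it and what belongs to its genotype cannot be told apart.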

How the results depend on the processing

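Against the control, 4 members (Ndufa5, Ndufb3, Ndufb10 and Ndufv2) stayed higher and 3 (Ndufa11, Ndufb4 and Ndufa3) stayed lower in each of 12 other settings in which they were tested, leaving out the one without a filter. Without a filter 0 members passed in any direction, for IP against input and against the control (limma, lowest adjusted p = 0.143 and 0.0807), while 26 and 18 had an unadjusted p under 0.05. That fit took in 26505 genes, many at or near 0, and called 0% of them. With no replicate block, 4 members were higher and 3 lower than the control, beside 2.37% and 10.2% of all genes. Asking for 50 FPKM in each input gave 11 higher and 12 lower of the 35 members left, beside 14% and 32.6% of all genes so filtered. The median difference was then -0.15 over these members and -0.35 over all genes. Scaling to a common sum (TPM) gave 8 higher and 12 lower, beside 5.27% and 29.9% of all genes. The median difference under TPM was -0.15 over members and -0.53 over all genes, and 8 members were above 2. Centring gave a median difference of 0.31 over members and -0.08 over all genes, and a median log2 ratio of -0.039 over members. Under TPM the sign turned for Ndufb2 (-0.078) and Ndufs6 (-0.15) against the control and for Ndufv1 (0.060) against the input. Under centring it turned for Ndufa2 (0.14), Ndufa6 (0.054) and Ndufa10 (0.0072) against the control and for Ndufb9 (0.17) and Ndufv1 (0.28) against the input. None of these values had been called. With genes sharing a 50-base word added up, Ndufc1 turned to 1.07 against the input and 1.27 against the control, in a sum that holds the more abundant Rps16. The cause of these changes was not tested. Leaving out 1 tet-LIN28B mouse leaves no test. The median log2 ratio then ran from -0.47 to -0.30, the median difference from -0.066 to 0.049, members above 2 from 5 to 7, those below 0.5 from 11 to 12, and the median input difference from -0.24 to -0.03. The study's filter gave 11 higher and 10 lower of 31 members, beside 23.2% and 22.2% of all genes that passed it.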

Other observations

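Neighbours that overlap members on the opposite strand had values of their own. Smim27, beside Ndufb6, had 16.0 and 23.1 FPKM in the tet-LIN28B IPs against 79.0 and 76.3 FPKM in their inputs, and 63.9 FPKM in the control IP against 80.5 FPKM in the control input. Mrpl36, a mitochondrial ribosomal protein gene beside Ndufs6, had 45.9 and 57.2 FPKM in the tet-LIN28B IPs against 208 and 274 FPKM in their inputs, and 174 FPKM in the control IP against 307 FPKM in the control input, while Ndufs6 itself passed in neither direction. Mrpl47, beside Ndufb5, had 65.2 and 79.7 FPKM in the tet-LIN28B IPs against 34.0 and 46.6 FPKM in their inputs, and 40.8 FPKM in the control IP against 36.5 FPKM in the control input, whereas Ndufb5 was lower in the tet-LIN28B IP than in the input. These 3 were chosen after their values were seen, and their differences were not tested here.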
